A study of Arabidopsis thaliana with 10 samples.

Results

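MORF2OX(w), a line of Arabidopsis thaliana that overexpresses MORF2 and is labelled as the weaker of a pair of such lines, was compared with gun1-9, a mutant of GUN1, when both grew on norflurazon. The comparison took the 2 libraries of MORF2OX(w) and the 2 of gun1-9 by their labels, 4 of the 10 libraries in the series, and all genes counted in them. Both lines have the Col6-3 background, and whole seedlings aged 5 days were grown with 5 µM norflurazon under 24 h light of 100 µmol per square metre and second at 22 °C. Each library came from more than 100 pooled plants, so differences between single plants were not measured. The other groups were MORF2OX, labelled as the stronger overexpressor, and wild type, both on norflurazon, and untreated wild type, each with 2 libraries. The labels give neither the promoter of the MORF2 transgene nor the number of independent lines behind it. No untreated libraries of MORF2OX(w) or gun1-9 were used here, so what a line does without norflurazon and what it does on norflurazon cannot be told apart. The labels do not say that replicates were grown apart, and the p-values measure only the spread between these libraries, which may be technical.

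Norflurazon is an inhibitor of phytoene desaturase, which makes carotenoids, and in light it bleaches the plastids of seedlings, which then switch off many nuclear genes for photosynthesis. In gun (genomes uncoupled) mutants, these nuclear genes stay partly on although the plastids are damaged. GUN1 is a plastid pentatricopeptide repeat protein of this plastid-to-nucleus signalling, and MORF2 is a plastid factor needed for editing of plastid RNA that is reported to bind GUN1. Setting MORF2OX(w) against gun1-9 asks how far the seedlings with extra MORF2 and those without functional GUN1 share 1 expression state.

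MORF2 itself stood far apart between the lines, and GUN1 also differed. MORF2 (AT2G33430) had 4429.5 and 5012 CPM (counts scaled to a common library size) in MORF2OX(w), against 123 and 117 CPM in gun1-9. The log2 fold change was 5.30 ± 0.15 (SE, edgeR adjusted p = 2.42e-09), and MORF2OX had still more, 7969 and 7248 CPM. GUN1 (AT2G31400, chr2:13386954-13390854 on the minus strand of TAIR10.1) had 337 and 364 CPM in MORF2OX(w), against 154 and 147 CPM in gun1-9. Its log2 fold change was 1.22 ± 0.17 (SE, edgeR adjusted p = 0.000177), and the groups did not overlap. In wild type on norflurazon GUN1 had 191 and 284 CPM, so the mutant libraries were below it and the overexpressor libraries above it. The gun1-9 transcript was thus lowered but present, and the count says nothing of whether it makes functional protein. MORF2 went the way the overexpressor labels state. GUN1, for which the labels state no direction, was lower in gun1-9 than in wild type by 0.66 on the log2 scale (edgeR adjusted p = 0.00794).

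**Figure D1:**
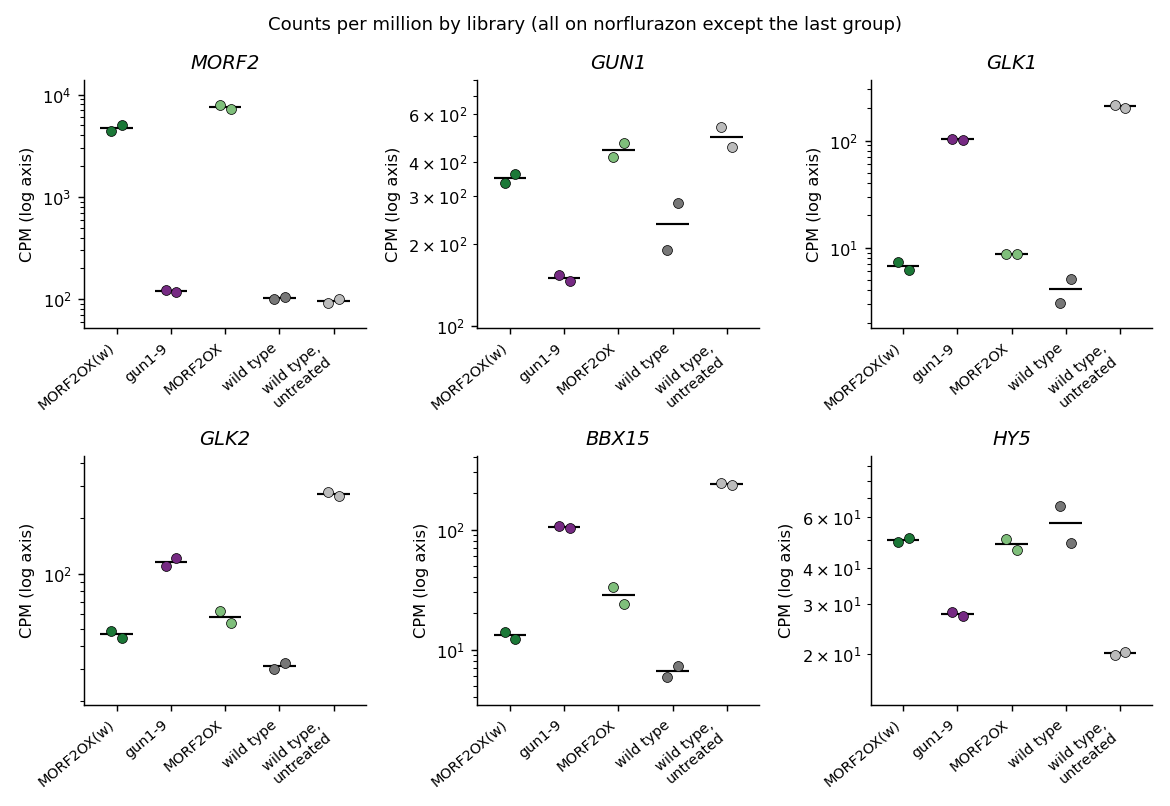
CPM per library (log axis) of MORF2, GUN1 and 4 regulators of greening and light response, points being libraries and bars group means. MORF2 lies at 4429.5 and 5012 CPM in MORF2OX(w) and at 123 and 117 CPM in gun1-9, while GLK1, GLK2 and BBX15 are lower and HY5 is higher in MORF2OX(w) than in gun1-9.

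The lines differed in a large part of the transcriptome, with more genes lower than higher in the overexpressor. Of 20628 genes tested, 3440 (16.7%) were higher in MORF2OX(w) and 3926 (19.0%) lower, together 7366 (35.7%), by edgeR's quasi-likelihood test at an adjusted p of 0.05. With a change of at least 2-fold, 891 (4.32%) were higher and 1431 (6.94%) lower. Both MORF2OX(w) libraries lay above both gun1-9 libraries in 38.0% of the genes tested and below both in 37.1%, with no test. The count depended on each of the compared libraries. It was 4619 and 4704 without MORF2OX(w) replicate 1 and 2, against 5075 and 4571 without gun1-9 replicate 1 and 2. The genes higher then numbered 2005 and 2077 without a MORF2OX(w) library, against 2246 and 1980 without a gun1-9 library. The genes lower fell to 2614 without MORF2OX(w) replicate 1 and to 2591 without gun1-9 replicate 2. In these fits the remaining library of a line was assumed to vary like the other groups. Total counts were 22840943 and 19967185 in MORF2OX(w) and 21196295 and 24792558 in gun1-9, within the range of all 10 libraries, and replicates of each line ranked genes alike (Spearman 0.997 in MORF2OX(w), 0.996 in gun1-9).

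Among genes with at least 10 CPM in 1 of the lines, the largest rises after MORF2 were in single genes with varied annotations. AT1G17960, annotated as a threonyl-tRNA synthetase, had 160.1 and 137 CPM in MORF2OX(w), against 8.20 and 6.45 CPM in gun1-9. The log2 fold change was 4.35 ± 0.16 (SE, edgeR adjusted p = 8.48e-09), and wild type on norflurazon had more than either line, 282 and 264 CPM. XTH25, a xyloglucan endotransglucosylase that cuts and rejoins cell wall polymers, had 13.1 and 16.6 CPM in MORF2OX(w), against 0.939 and 0.817 CPM in gun1-9 (log2 4.07 ± 0.20 SE). The levels in wild type on norflurazon, 11.1 and 11.8 CPM, were close to those of MORF2OX(w), and gun1-9 was the line that stood apart. PISTILLATA (PI), a floral homeotic MADS-box factor, showed another order. It had 34.2 and 43.2 CPM in MORF2OX(w), against 5.14 and 4.77 CPM in gun1-9 (log2 2.96 ± 0.25 SE, edgeR adjusted p = 3.09e-06), while wild type on norflurazon had 9.21 and 8.20 CPM and MORF2OX 30.2 and 53.9 CPM. Both overexpressors thus carried more of this flower transcript than the other seedlings.

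The remaining largest rises had log2 fold changes of 2.59 to 3.97. They were AT3G05730 (a defensin-like protein), AT3G16660 (Pollen Ole e 1 family), AT4G22505 (lipid-transfer superfamily), AT3G53310 (a B3-domain factor), MLP28 (major latex protein-like), FLS2 (the receptor of bacterial flagellin), AT2G06950 (a pseudogene) and JAL22 (a jacalin-type lectin). MLP28 had 45.1 and 38.9 CPM in MORF2OX(w), against 5.93 and 5.55 CPM in gun1-9 (log2 2.87 ± 0.17 SE). FLS2 shares its locus with AT5G46340 on the opposite strand, and the strand setting of the counting is not given, so its reads may be shared. Genes whose libraries overlapped between the lines were left out when the largest changes were chosen, so these 8 lie apart by that rule.

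The largest falls fell into 3 kinds, small heat shock proteins, light-harvesting or Rubisco genes, and a few single genes. PGL5, a 6-phosphogluconolactonase of the oxidative pentose phosphate pathway (AT5G24420, chr5:8336534-8338032, minus strand of TAIR10.1), had 0.196 and 0.414 CPM in MORF2OX(w), against 75.0 and 73.5 CPM in gun1-9. The log2 fold change was -7.94 ± 0.24 (SE, edgeR adjusted p = 2.63e-09). Wild type on norflurazon had 0.167 and 0.249 CPM, so PGL5 was near 0 in MORF2OX(w) as in wild type. AIG1, a GTP-binding protein known from defence, had 0.156 and 0.184 CPM in MORF2OX(w), against 16.8 and 18.0 CPM in gun1-9 (log2 -6.64 ± 0.51 SE). AT1G29720, a leucine-rich repeat kinase, had 0.704 and 0.414 CPM, against 33.5 and 27.6 CPM in gun1-9 (log2 -5.73 ± 0.23 SE). AT5G24200, annotated as an alpha/beta-hydrolase, had 0.313 and 0.230 CPM, against 19.0 and 16.8 CPM in gun1-9 (log2 -6.00 ± 0.26 SE). For these genes the MORF2OX(w) libraries were nearly silent and the gun1-9 libraries clearly above.

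**Figure D2:**
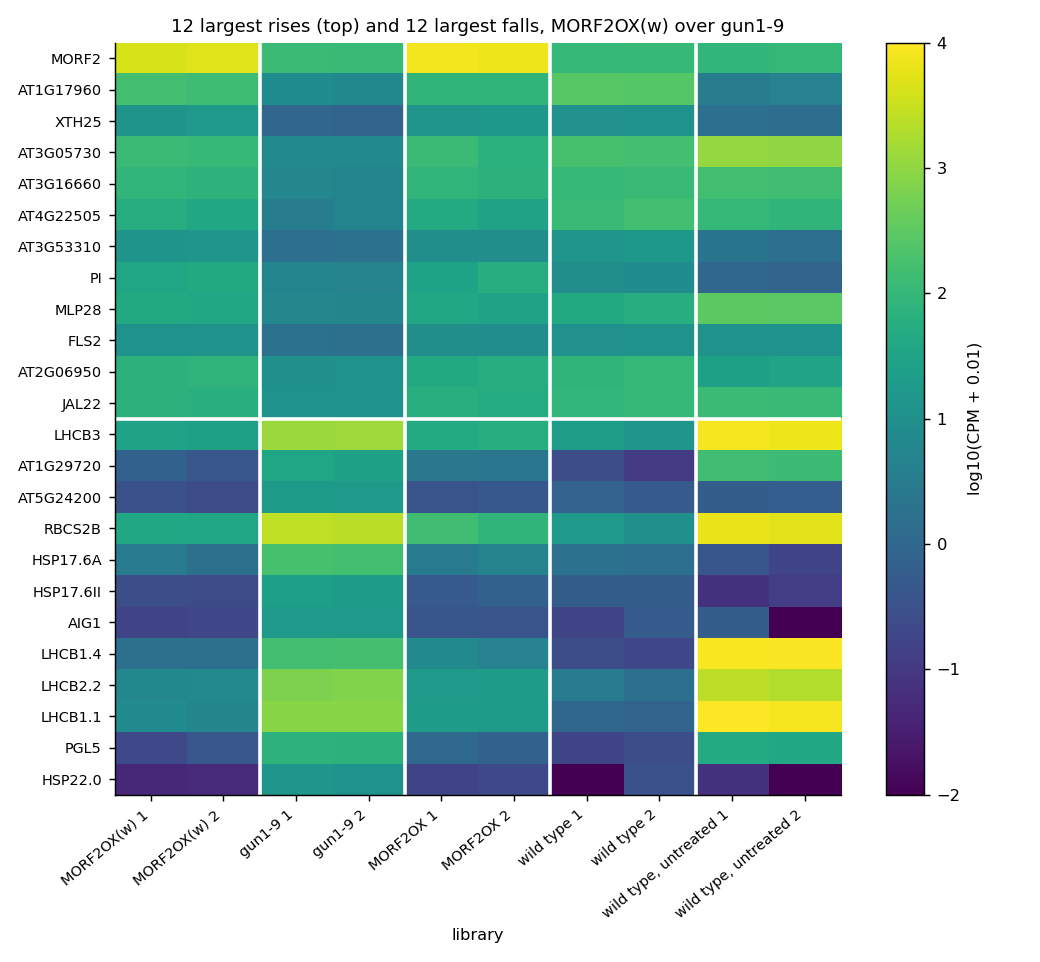
Colour gives log10(CPM + 0.01) per library for the 12 genes with the largest rise (upper block) and the 12 with the largest fall (lower block) in MORF2OX(w) over gun1-9. The blocks change colour between MORF2OX(w) and gun1-9, as for PGL5 with 0.196 and 0.414 CPM in MORF2OX(w), against 75.0 and 73.5 CPM in gun1-9.

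The light-harvesting antenna, the chlorophyll-binding proteins that collect light for both photosystems, was lower in MORF2OX(w) throughout. All 20 members tested fell, where 19.0% of all genes tested did, and all 20 by at least 2-fold, with a median log2 fold change of -3.39 against 0.00 over all genes tested. LHCB1.1, a major antenna protein of photosystem II, had 7.82 and 5.66 CPM in MORF2OX(w), against 854 and 871 CPM in gun1-9 (log2 -6.99 ± 0.20 SE, edgeR adjusted p = 2.42e-09). LHCB2.2 had 6.49 and 6.63 CPM, against 643 and 715 CPM in gun1-9 (log2 -6.69 ± 0.26 SE). LHCB3 had 28.2 and 25.2 CPM, against 1245 and 1339 CPM in gun1-9 (log2 -5.59 ± 0.23 SE). The mildest falls of the list were in minor or rare antenna genes, at -1.41 for LHCB4.3, -1.42 for LHCA5 and -1.87 for LHCA6, which were chosen for naming after their values were seen. The members together summed to 3351 and 3464 CPM in MORF2OX(w), 26829 and 28478 CPM in gun1-9, 6499 and 6215 CPM in MORF2OX, and 1749.8 and 1256 CPM in wild type on norflurazon. Against wild type on norflurazon, 17 members rose in MORF2OX(w) (8.36% of all genes did) and 20 in gun1-9 (22.9% of all genes did). Those 2 comparisons share their wild type libraries. The copies of LHCB1 are nearly identical in sequence, and reads may match several of them, so single members of that family are uncertain.

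The photosystems and the electron carriers between them moved with the antenna. All 33 members fell, with a median of -1.97. PSBQ2, which helps photosystem II to split water, had 31.1 and 29.7 CPM in MORF2OX(w), against 470.3 and 505 CPM in gun1-9 (log2 -4.00 ± 0.15 SE). PSAH2, a subunit of photosystem I, had 33.7 and 33.7 CPM, against 445 and 466 CPM in gun1-9 (log2 -3.75 ± 0.15 SE), and also overlaps a gene on the opposite strand. PSBS, the protein that triggers dissipation of excess light energy, had 161 and 149 CPM, against 1692 and 1736 CPM in gun1-9 (log2 -3.47 ± 0.16 SE). In all 33 members both MORF2OX(w) libraries lay below both gun1-9 libraries, where 37.1% of all genes tested did. Of 13 genes of cyclic electron flow and the NDH complex, 12 fell, with a median of -1.5. NDF4, an NDH subunit, had 5.51 and 5.66 CPM in MORF2OX(w), against 56.1 and 51.2 CPM in gun1-9 (log2 -3.26 ± 0.19 SE). The exception, PGRL1B of the PGR5-dependent route, had 37.2 and 32.0 CPM in MORF2OX(w), against 32.6 and 37.1 CPM in gun1-9 (log2 -0.01 ± 0.12 SE), and was named after its value was seen.

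**Figure D3:**
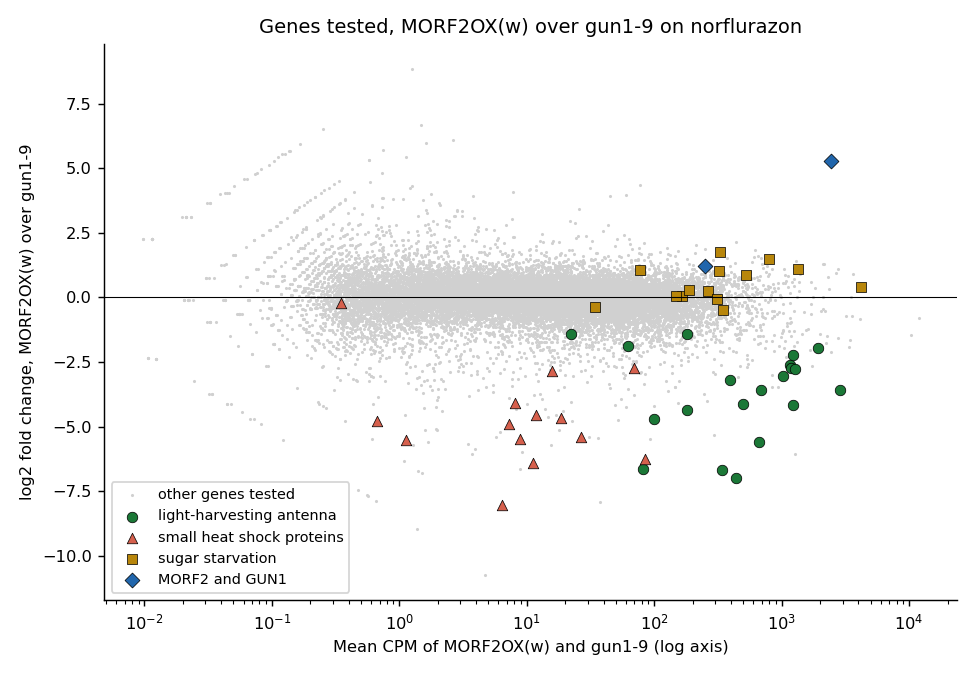
Log2 fold change of MORF2OX(w) over gun1-9 against mean CPM of both lines (log axis) for the 20628 genes tested, with 4 gene lists marked. All 20 antenna genes lie below 0, at a median of -3.39, the small heat shock genes have a median of -4.85, and MORF2 lies at 5.30.

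Carbon fixation and photorespiration, which salvages the product of Rubisco's reaction with oxygen, were lower too. Of 23 Calvin cycle and carbonic anhydrase genes, 22 fell, at a median of -1.5, and of 13 photorespiration genes 12 fell, at -1.26. RBCS2B, a Rubisco small subunit, had 40.4 and 33.6 CPM in MORF2OX(w), against 2628 and 2382 CPM in gun1-9 (log2 -6.08 ± 0.32 SE, edgeR adjusted p = 8.05e-08). The abundant copy RBCS1A, shown here for contrast and chosen after its values were seen, fell by only 0.79 on the log2 scale, with 8555 and 8840.0 CPM in MORF2OX(w), against 16490.0 and 13613 CPM in gun1-9. The RBCS copies are also near-identical, and reads may match several of them. CA1, a chloroplast carbonic anhydrase, had 486 and 438 CPM in MORF2OX(w), against 5096 and 5643 CPM in gun1-9 (log2 -3.54 ± 0.20 SE). With 6.07 and 5.13 CPM in wild type on norflurazon, CA1 was raised over wild type in both lines, by 6.37 in MORF2OX(w) and by 9.91 in gun1-9 on the log2 scale. SHM1, the mitochondrial serine hydroxymethyltransferase of photorespiration, had 969 and 1030.4 CPM in MORF2OX(w), against 3167 and 3702 CPM in gun1-9 (log2 -1.78 ± 0.16 SE).

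Pigment synthesis followed the same direction with smaller steps. Of 28 tetrapyrrole genes tested of 29 listed, 25 fell, at a median of -1.17, and of 14 carotenoid genes 12 fell, at -0.95. GUN5, the subunit of magnesium chelatase that binds the porphyrin, had 629 and 685 CPM in MORF2OX(w), against 2579 and 2823 CPM in gun1-9 (log2 -2.04 ± 0.15 SE). GUN4, which activates that enzyme, had 48.4 and 48.2 CPM, against 178 and 172 CPM in gun1-9 (log2 -1.86 ± 0.17 SE). PSY, phytoene synthase at the entry of carotenoid synthesis, had 105 and 99.9 CPM, against 257 and 292 CPM in gun1-9 (log2 -1.42 ± 0.13 SE). The 3 tetrapyrrole genes that did not pass the test were HEMD, FC1 and FLU, at -0.20, -0.02 and 0.31, named after their values were seen. FLU is known to restrain the pathway.

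Regulators of greening split into falls and rises. GLK1, a transcription factor that switches on antenna and chlorophyll genes, had 7.31 and 6.17 CPM in MORF2OX(w), against 104 and 101 CPM in gun1-9 (log2 -3.92 ± 0.18 SE, edgeR adjusted p = 2.85e-08). Its partner GLK2 had 48.6 and 44.4 CPM, against 110.2 and 122 CPM in gun1-9 (log2 -1.32 ± 0.12 SE). Among the B-box factors, BBX15 had 14.2 and 12.2 CPM, against 107 and 103 CPM in gun1-9 (log2 -2.99 ± 0.17 SE), and BBX14 fell by 0.78. BBX16 had 0 counts in both MORF2OX(w) libraries and 119 counts in the gun1-9 libraries together, so it was at least 43.1-fold lower, taking a floor of 3 counts over the group. The blue-light receptor CRY1 fell by 0.63.

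The light-signalling factors HY5, CGA1, PIF1 and PIF3 were higher in MORF2OX(w) than in gun1-9. HY5, which promotes development in light, had 49.3 and 50.8 CPM in MORF2OX(w), against 27.9 and 27.1 CPM in gun1-9 (log2 0.86 ± 0.14 SE, edgeR adjusted p = 0.000425). CGA1, a GATA factor of chloroplast development, had 48.4 and 48.4 CPM, against 18.9 and 16.8 CPM in gun1-9 (log2 1.44 ± 0.14 SE). PIF3, which represses greening in the dark, had a log2 fold change of 0.75 ± 0.14 (SE). PIF1 had 0.57 ± 0.14 (SE, edgeR adjusted p = 0.00861), and its adjusted p was 0.0555 without MORF2OX(w) replicate 1, 0.0528 without gun1-9 replicate 1 and 0.0533 without gun1-9 replicate 2. Against wild type on norflurazon, HY5, CGA1 and PIF3 did not pass the test in MORF2OX(w), at -0.19, 0.23 and -0.04 on the log2 scale. In gun1-9 these genes were lower than in wild type, at -1.06, -1.21 and -0.79, and PIF1 passed in neither line. In all, 6 of the 17 regulators tested were lower in MORF2OX(w) than in gun1-9, 4 were higher and 7 did not pass the test. Of all genes tested, 19.0% fell and 16.7% rose. Whether these regulators had a part in the falls of photosynthesis genes was not tested.

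Genes for the plastid's own expression machinery showed smaller changes. Of all genes tested, 19.0% fell and 16.7% rose. Of 34 nuclear genes of plastid ribosomal proteins, 24 fell, at a median of -0.60, and 14 did without gun1-9 replicate 1. RPL11 had 122 and 126 CPM in MORF2OX(w), against 247 and 279.6 CPM in gun1-9 (log2 -1.09 ± 0.14 SE). Of 23 genes of plastid transcription, 11 fell and 2 rose, the rises being a smaller share than in all genes tested. SIG1, a sigma factor that guides the plastid-encoded RNA polymerase, had 85.0 and 80.3 CPM in MORF2OX(w), against 288 and 247 CPM in gun1-9 (log2 -1.70 ± 0.13 SE). The 2 rises of that list, FSD2 and PTAC10, both components of this polymerase complex, were lost without either MORF2OX(w) library, and 1 rose without either gun1-9 library. Of 21 plastid RNA editing factors, 13 fell and none rose. CREF7, a pentatricopeptide repeat editing factor, had 7.43 and 9.39 CPM in MORF2OX(w), against 39.1 and 36.2 CPM in gun1-9 (log2 -2.17 ± 0.16 SE). Of 18 plastid chaperone and protease genes, 12 fell and 1 rose, and of 11 import genes 3 fell, or 1 without MORF2OX(w) replicate 1 or gun1-9 replicate 2.

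Within the MORF family of 9 editing factors, few members other than MORF2 differed between the lines. MORF4 had 8.13 and 8.33 CPM in MORF2OX(w), against 4.99 and 3.91 CPM in gun1-9 (log2 0.89 ± 0.17 SE, edgeR adjusted p = 0.00166). MORF9, a plastid member, had 73.0 and 78.9 CPM, against 114 and 124 CPM in gun1-9 (log2 -0.65 ± 0.17 SE, edgeR adjusted p = 0.0104), and its adjusted p was 0.0883 without MORF2OX(w) replicate 1 and 0.0859 without gun1-9 replicate 2. The other 6 members did not pass the test, although 3 members in all fell when either wild type library on norflurazon was left out. Against wild type on norflurazon, MORF4 was at -1.39 on the log2 scale in gun1-9 (edgeR adjusted p = 3.8e-05) and at -0.49 in MORF2OX(w) (edgeR adjusted p = 0.0602). MORF9 was at 0.71 in gun1-9 (edgeR adjusted p = 0.00525) and at 0.06 in MORF2OX(w) (edgeR adjusted p = 0.850). Plastid-encoded transcripts were few. The kit selects polyadenylated RNA, and its part in these levels was not tested. The 8 plastid genes listed as transcribed mainly by the plastid-encoded polymerase summed to 238 and 289 CPM in MORF2OX(w), against 105 and 198 CPM in gun1-9, and 2 of them rose. That count was 1 without MORF2OX(w) replicate 2 or gun1-9 replicate 1 and 6 without gun1-9 replicate 2. The 7 tested of the 8 listed for the nuclear-encoded polymerase included 3 that rose, with list sums of 131 and 77.0 CPM in MORF2OX(w), against 45.8 and 66.8 CPM in gun1-9. In the second list none rose without MORF2OX(w) replicate 1 or gun1-9 replicate 1, 1 without gun1-9 replicate 2 and 5 without wild type replicate 2, so these counts rest on single libraries.

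**Figure D4:**
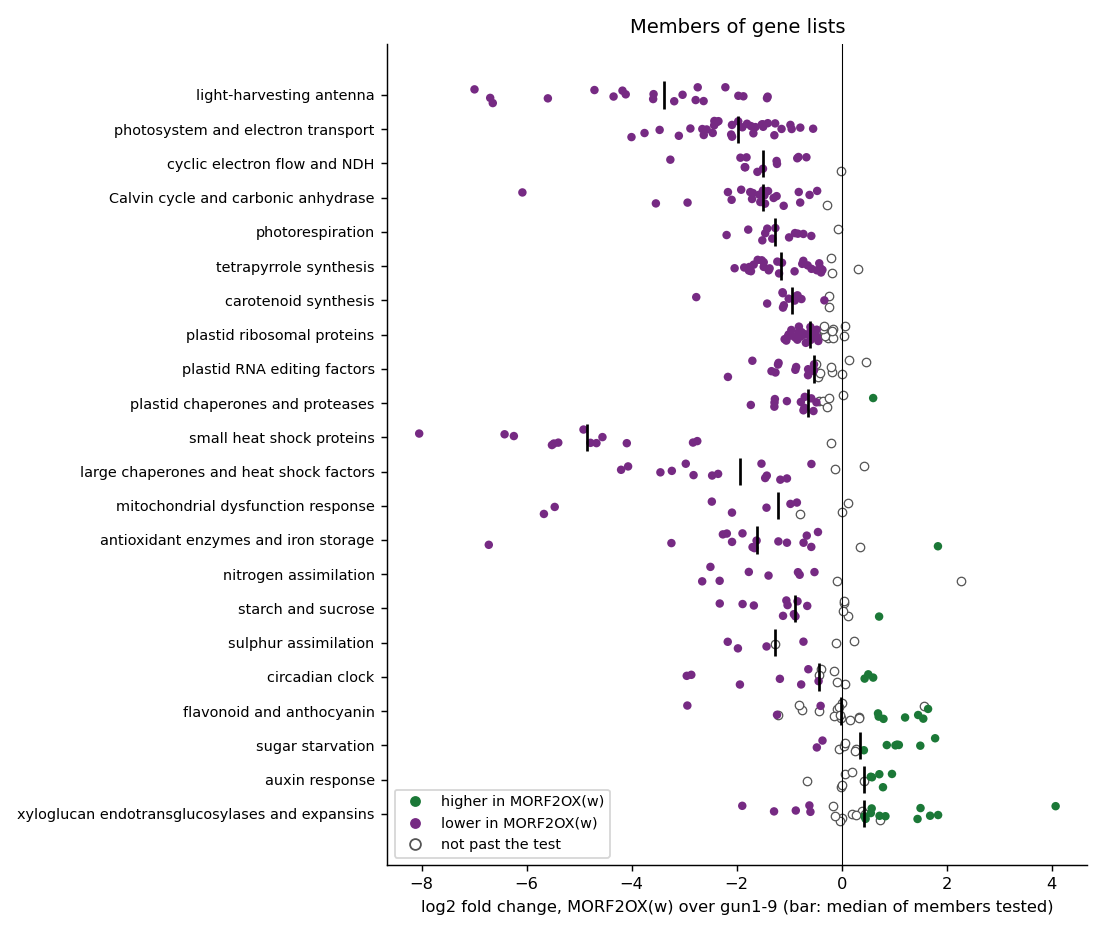
Each point is a list member's log2 fold change of MORF2OX(w) over gun1-9, filled where it passed the edgeR test, and the bar is the median of the members tested (no bar where a tested member had 0 counts in a line). Photosynthesis, chaperone and antioxidant lists lie mostly below 0, with medians of -3.39 for the antenna and -4.85 for small heat shock proteins, and sugar starvation, auxin and cell wall lists lie on both sides with medians of 0.35, 0.43 and 0.43.

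Small heat shock proteins, chaperones that hold unfolding proteins and are made mainly under heat or other protein-damaging stress, formed the list with the lowest median. Of 14 members, 13 fell, at a median of -4.85, all 13 by at least 2-fold. HSP22.0, of the endomembrane system, was counted 2 times in MORF2OX(w) and 546 times in gun1-9, which puts gun1-9 297-fold above MORF2OX(w) with a 95% interval of 81.8 to 2457 that covers counting error only. HSP17.6II had 0.274 and 0.230 CPM in MORF2OX(w), against 24.9 and 19.5 CPM in gun1-9 (log2 -6.42 ± 0.27 SE). HSP17.6A had 2.74 and 1.61 CPM, against 179.6 and 155 CPM in gun1-9 (log2 -6.24 ± 0.24 SE, edgeR adjusted p = 9.03e-09). The exception, HSP18.2, was low in both, with 0.235 and 0.414 CPM in MORF2OX(w), against 0.445 and 0.301 CPM in gun1-9. Together the members summed to 31.6 and 28.5 CPM in MORF2OX(w), 544 and 480.2 CPM in gun1-9, 33.2 and 35.0 CPM in MORF2OX, and 56.3 and 53.2 CPM in wild type on norflurazon. Against wild type on norflurazon 13 members rose in gun1-9, where 22.9% of all genes did. In MORF2OX(w) none rose and 2 fell (4.53% of all genes fell). Class I copies of this family are similar in sequence, so reads may match several of them.

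Heat shock factors bind inverted repeats of GAA, and the 250 bases before the annotated start were searched in each gene for GAANNTTC or TTCNNGAA, which read the same on both strands. The element was found in 7 of the 14 small heat shock promoters (50.0%), against 16.2% of 27437 promoters of protein-coding genes. Below are the promoters of the 3 members with the largest fall, HSP22.0, HSP17.6II and HSP17.6A, and then of HSP26.5 and HSP17.4, added after the search as the next largest falls with an element. All are read 5′ to 3′ along the gene from RefSeq's TAIR10.1, and capitals mark the elements. HSP22.0 lies at chr4:6370088-6370337 on the plus strand, HSP17.6II at chr5:3883112-3883361 on the minus strand, HSP17.6A at chr5:3884839-3885088 on the minus strand, HSP26.5 at chr1:19575867-19576116 on the minus strand and HSP17.4 at chr3:16984868-16985117 on the minus strand.
HSP22.0: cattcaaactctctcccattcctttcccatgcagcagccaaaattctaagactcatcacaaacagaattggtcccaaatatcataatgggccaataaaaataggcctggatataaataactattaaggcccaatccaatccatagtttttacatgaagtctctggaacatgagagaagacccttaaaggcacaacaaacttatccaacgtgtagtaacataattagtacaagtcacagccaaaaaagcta
HSP17.6II: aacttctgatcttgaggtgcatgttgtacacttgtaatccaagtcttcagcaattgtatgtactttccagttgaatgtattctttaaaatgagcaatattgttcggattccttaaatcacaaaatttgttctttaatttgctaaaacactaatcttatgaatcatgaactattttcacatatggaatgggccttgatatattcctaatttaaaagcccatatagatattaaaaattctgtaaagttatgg
HSP17.6A: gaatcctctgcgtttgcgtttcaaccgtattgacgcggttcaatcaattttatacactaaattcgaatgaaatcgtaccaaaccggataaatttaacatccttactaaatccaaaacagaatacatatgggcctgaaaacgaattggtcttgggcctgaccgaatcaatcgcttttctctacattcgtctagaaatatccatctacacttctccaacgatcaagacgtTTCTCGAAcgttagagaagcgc
HSP26.5: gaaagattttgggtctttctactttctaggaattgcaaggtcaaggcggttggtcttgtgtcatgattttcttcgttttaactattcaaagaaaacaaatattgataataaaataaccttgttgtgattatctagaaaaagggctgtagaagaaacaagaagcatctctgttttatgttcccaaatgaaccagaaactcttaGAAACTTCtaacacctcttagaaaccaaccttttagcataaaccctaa
HSP17.4: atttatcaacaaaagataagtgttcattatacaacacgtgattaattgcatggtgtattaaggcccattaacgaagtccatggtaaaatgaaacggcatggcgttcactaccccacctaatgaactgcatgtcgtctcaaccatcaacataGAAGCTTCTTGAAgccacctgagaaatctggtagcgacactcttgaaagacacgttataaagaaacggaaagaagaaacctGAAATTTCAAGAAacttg
In HSP17.6A the element starts 22 bases before the annotated start and in HSP26.5 48 bases before it, while HSP17.4 has 4 matches that overlap in pairs. The promoters of HSP22.0 and HSP17.6II hold no match to either pattern in this window. Why these transcripts fell was not tested. A match is a description of the sequence and does not show binding. Among the large chaperones and heat shock factors, 5 of 17 promoters (29.4%) held the element, and among the antenna genes 3 of 20 (15.0%).

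The larger chaperones fell with the small ones. Of 16 members tested of 17 listed, 14 fell, at a median of -1.94. ROF2, a co-chaperone of the heat response, had 10.5 and 9.85 CPM in MORF2OX(w), against 193 and 183 CPM in gun1-9 (log2 -4.20 ± 0.16 SE). HSFA2, a heat shock factor that keeps the response going, had 3.05 and 1.93 CPM, against 45.0 and 39.6 CPM in gun1-9 (log2 -4.07 ± 0.25 SE). HSP70, a cytosolic chaperone, had 148 and 134 CPM, against 1528 and 1558 CPM in gun1-9 (log2 -3.45 ± 0.13 SE). MORF2OX(w) was close to wild type on norflurazon in these genes, which had 129 and 142 CPM of HSP70. HSFA7A and HSFA7B did not pass the test, at -0.13 and 0.43, and were named after their values were seen. The chaperones of the endoplasmic reticulum changed less, with 3 of 10 lower, 1 when any library of either line was left out, and summed levels of 786 and 792 CPM in MORF2OX(w), against 870.0 and 899.8 CPM in gun1-9.

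Mitochondrial and oxidative stress genes were also lower in MORF2OX(w). Of 10 genes tested of the mitochondrial dysfunction response, 7 fell, at a median of -1.20. UGT74E2, a glucosyltransferase of the auxin precursor indole-3-butyric acid, had 3.48 and 4.79 CPM in MORF2OX(w), against 173 and 191 CPM in gun1-9 (log2 -5.46 ± 0.25 SE, edgeR adjusted p = 2.39e-08). UPOX, a mitochondrial protein induced by oxidative stress, had 22.4 and 19.0 CPM, against 114 and 116 CPM in gun1-9 (log2 -2.47 ± 0.19 SE). UPOX in wild type on norflurazon, at 61.9 and 38.6 CPM, lay between the lines, and MORF2OX(w) was below it by 1.28 on the log2 scale (edgeR adjusted p = 0.00151). In all, 5 of the 10 members were lower in MORF2OX(w) than in wild type on norflurazon, and none was higher. Of all genes tested, 4.53% were lower and 8.36% higher in that comparison.

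Of 17 antioxidant and iron storage genes, 15 fell and 1 rose, or 2 without either wild type library on norflurazon. APX2, a cytosolic ascorbate peroxidase known as a reporter of light and heat stress, was counted 1 time in MORF2OX(w) and 122 times in gun1-9, a 133-fold excess in gun1-9 with a 95% counting interval of 23.4 to 5281. FER3, a ferritin that stores iron in plastids, had 28.0 and 31.8 CPM in MORF2OX(w), against 263 and 303 CPM in gun1-9 (log2 -3.24 ± 0.17 SE). FSD1, an iron superoxide dismutase, had 25.3 and 29.3 CPM, against 128 and 134 CPM in gun1-9 (log2 -2.26 ± 0.12 SE). CAT3, a peroxisomal catalase, was the gene that rose, with 909 and 1016 CPM in MORF2OX(w), against 266 and 276 CPM in gun1-9 (log2 1.83 ± 0.12 SE, edgeR adjusted p = 3.94e-07). Wild type on norflurazon had 903 and 858 CPM of CAT3, so here again gun1-9 stood apart. Of 10 stress-inducible regulators and early light-induced genes tested, 4 fell, 1 rose and 5 did not pass the test. Of all genes tested, 19.0% fell and 16.7% rose. The early light-induced proteins ELIP1 and ELIP2, which bind pigment under light stress, fell by 2.39 and 2.13, and ZAT12, a zinc-finger factor of oxidative stress, by 2.05. ERF5, an ethylene response factor, rose by 0.72 (edgeR adjusted p = 0.00869), but did not pass the test without MORF2OX(w) replicate 1 or gun1-9 replicate 2.

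**Figure D5:**
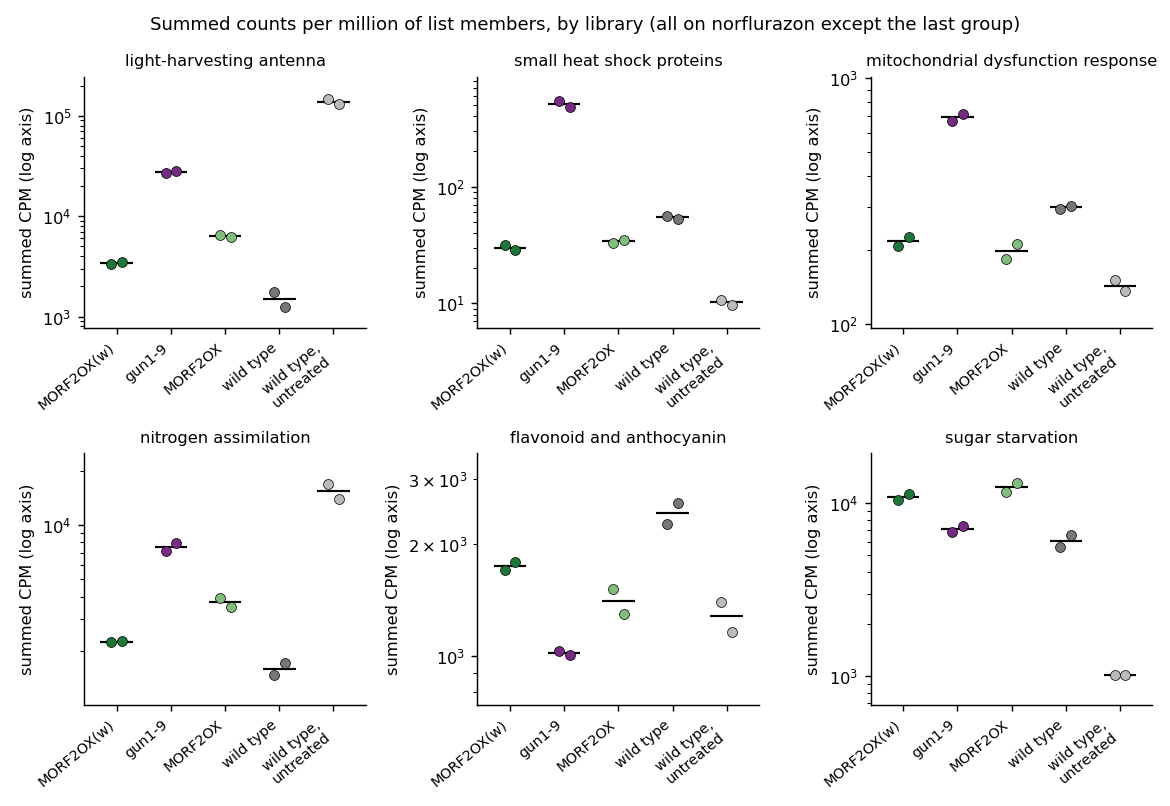
Summed CPM of all members of 6 lists in each library (log axis), points being libraries and bars group means. The antenna, small heat shock, mitochondrial and nitrogen lists are lower in MORF2OX(w) than in gun1-9 (3351 and 3464 CPM, against 26829 and 28478 CPM for the antenna), and the flavonoid and sugar starvation lists are higher.

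Nitrogen, sulphur and starch metabolism genes were in part lower in the overexpressor, where 19.0% of all genes tested fell and 16.7% rose. Of 10 nitrogen assimilation genes, 8 fell and none rose. NIA2, the main nitrate reductase, had 469.8 and 474 CPM in MORF2OX(w), against 3002 and 2950.3 CPM in gun1-9 (log2 -2.66 ± 0.20 SE). NIR1, which reduces the nitrite formed, had 37.4 and 33.8 CPM, against 193 and 209.9 CPM in gun1-9 (log2 -2.50 ± 0.20 SE), and GLN2, the plastid glutamine synthetase, fell by 2.32. The 3 enzymes that carry nitrate to glutamine thus moved together. In sulphur assimilation 4 of 7 genes fell, led by APR3, an APS reductase, at -2.17. Of 15 starch and sucrose genes tested, 10 fell and 1 rose, with no rise left without MORF2OX(w) replicate 1 or gun1-9 replicate 1. ADG1, the small subunit of ADP-glucose pyrophosphorylase that opens starch synthesis, had 57.0 and 65.5 CPM in MORF2OX(w), against 263 and 349.9 CPM in gun1-9 (log2 -2.32 ± 0.18 SE). Of 9 genes of thylakoid lipids, 7 fell.

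Sugar starvation genes, which plants switch on in prolonged darkness or when sugar runs short, were more often higher than lower. Of 14 members, 7 rose (16.7% of all genes did) and 2 fell, at a median of 0.35. The rises numbered 6 when any library of either line was left out, and neither fall held without MORF2OX(w) replicate 1 or gun1-9 replicate 2. BCAT2, which breaks down branched-chain amino acids, had 488 and 527 CPM in MORF2OX(w), against 146 and 150.0 CPM in gun1-9 (log2 1.78 ± 0.16 SE, edgeR adjusted p = 6.02e-06). DIN1, a dark-inducible and senescence-associated gene, had 1160.2 and 1205 CPM, against 421 and 418 CPM in gun1-9 (log2 1.5 ± 0.16 SE). DIN6, an asparagine synthetase, had 1666 and 1988 CPM, against 742 and 978 CPM in gun1-9 (log2 1.09 ± 0.18 SE). These genes were not at the wild type level. Wild type on norflurazon had 226 and 226 CPM of BCAT2, 700.1 and 492 CPM of DIN1 and 404 and 508 CPM of DIN6, so the overexpressor lay above it in each. In all, 10 members were higher in MORF2OX(w) than in wild type on norflurazon (8.36% of all genes were) and none lower. In gun1-9 7 were higher (22.9% of all genes were) and 3 lower (20.9% of all genes were).

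Flavonoid genes past the test were more often higher than lower. Of 24 members tested, 7 rose, 3 fell and 14 did not pass the test. Of all genes tested, 16.7% rose and 19.0% fell, so the share of this list that fell was below the background. TT4, chalcone synthase at the entry of the pathway, had 893 and 923 CPM in MORF2OX(w), against 328 and 291 CPM in gun1-9 (log2 1.55 ± 0.16 SE, edgeR adjusted p = 1.51e-05). FLS1, flavonol synthase, had 92.3 and 102 CPM, against 35.7 and 35.2 CPM in gun1-9 (log2 1.45 ± 0.15 SE), and MYB111, a factor that switches on flavonol genes, had 11.8 and 9.71 CPM, against 3.90 and 3.01 CPM in gun1-9 (log2 1.64 ± 0.25 SE). All 3 were also lower in gun1-9 than in wild type on norflurazon, by 2.09, 2.26 and 2.2 on the log2 scale. Among the falls, 5MAT, which adds a malonyl group to anthocyanins, had 0.313 and 0.184 CPM in MORF2OX(w), against 2.62 and 1.38 CPM in gun1-9 (log2 -2.94 ± 0.47 SE), at low levels in both. UGT78D2, a flavonoid glucosyltransferase, fell by 0.40 (edgeR adjusted p = 0.0106), but did not pass the test without MORF2OX(w) replicate 2 or gun1-9 replicate 2. The median of the list was -0.01. Against wild type on norflurazon, 13 members were lower in MORF2OX(w) and 1 was higher (4.53% and 8.36% of all genes tested were). In gun1-9 15 were lower and 2 higher than in wild type (20.9% and 22.9% of all genes were).

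Cell wall and clock genes past the test went in both directions, and the auxin genes past it were all higher. Of all genes tested, 16.7% rose and 19.0% fell, and the cell wall falls and clock rises were near these shares. Of 25 xyloglucan endotransglucosylases and expansins, 11 rose and 5 fell, with 3 falls when any library of either line was left out. EXPA3, an expansin that loosens walls, had 38.3 and 33.4 CPM in MORF2OX(w), against 11.2 and 11.2 CPM in gun1-9 (log2 1.68 ± 0.18 SE), whereas XTH19 had 3.01 and 3.5 CPM, against 11.9 and 12.3 CPM in gun1-9 (log2 -1.89 ± 0.29 SE). Of 11 auxin response genes tested, 5 rose and none fell. IAA4, a repressor of auxin signalling that auxin itself induces, had 107 and 94.2 CPM in MORF2OX(w), against 52.6 and 51.1 CPM in gun1-9 (log2 0.96 ± 0.11 SE, edgeR adjusted p = 4.64e-05). Among 15 clock genes 7 fell and 3 rose, but none rose without MORF2OX(w) replicate 1 or gun1-9 replicate 2 and 1 without MORF2OX(w) replicate 2. GI, an evening clock component that also promotes flowering, had 8.92 and 10.3 CPM, against 67.9 and 71.9 CPM in gun1-9 (log2 -2.86 ± 0.17 SE). The plants grew in constant light, and the time of harvest is not given in the sources used here.

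In the hormone and defence lists single genes changed strongly. AOC2, an allene oxide cyclase of jasmonate synthesis, had 0.117 and 0.0921 CPM in MORF2OX(w), against 6.62 and 8.17 CPM in gun1-9 (log2 -6.06 ± 0.34 SE), although 6 of the 19 jasmonate genes tested rose and 3 fell. The rises numbered 2 without MORF2OX(w) replicate 2, 3 without gun1-9 replicate 1 and 1 without gun1-9 replicate 2, and 1 fall held without either MORF2OX(w) library or gun1-9 replicate 2. PBS3, which acts in salicylate synthesis, had 0.117 and 0.138 CPM, against 7.46 and 8.04 CPM in gun1-9 (log2 -5.87 ± 0.39 SE). ICS1, the isochorismate synthase of the same route, had 5.44 and 6.81 CPM, against 17.9 and 21.9 CPM in gun1-9 (log2 -1.71 ± 0.16 SE). In all, 4 of 12 salicylate and defence genes fell and 2 rose, or 1 without MORF2OX(w) replicate 2 or gun1-9 replicate 1. Of all genes tested, 19.0% fell and 16.7% rose, so the share of this list that rose equals the background. CYP707A2, which breaks down abscisic acid, had 1.68 and 1.80 CPM, against 38.4 and 35.0 CPM in gun1-9 (log2 -4.40 ± 0.17 SE, edgeR adjusted p = 9.03e-09). RD22, a dehydration gene induced by abscisic acid, went the other way, with 9.19 and 9.85 CPM in MORF2OX(w), against 3.16 and 2.41 CPM in gun1-9 (log2 1.78 ± 0.27 SE). Carotenoids are the precursors of abscisic acid, whose level was not measured.

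Aliphatic glucosinolate genes past the test were all lower, and those of the indolic and glutathione transferase lists went in both directions. Of all genes tested, 19.0% fell and 16.7% rose, and the rises of these lists were a smaller share than that. Of 20 aliphatic glucosinolate genes tested, 9 fell and none rose, and 5 fell without MORF2OX(w) replicate 2. UGT74C1, a glucosyltransferase of the pathway, had 51.4 and 53.2 CPM in MORF2OX(w), against 154 and 151 CPM in gun1-9 (log2 -1.54 ± 0.12 SE). Of 21 tau glutathione transferases tested, 9 fell and 3 rose, with GSTU18 at -2.04 and GSTU20 at 1.78, and 1 rose without MORF2OX(w) replicate 1 or gun1-9 replicate 1. Of 11 indolic glucosinolate genes tested, 3 fell and 1 rose. Among 16 genes of cell cycle and replication 5 fell and none rose, but the falls numbered 0 and 1 without MORF2OX(w) replicate 1 and 2 and 2 and 1 without gun1-9 replicate 1 and 2. The 8 commonly used normalisation genes summed to 5801 and 6313 CPM in MORF2OX(w), against 6297 and 6224 CPM in gun1-9, with 1 higher and 1 lower. None was higher when any library of either line was left out, and the number lower was 0 without MORF2OX(w) replicate 1 or gun1-9 replicate 2 and 3 without either wild type library on norflurazon.

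Some markers of single tissues passed the test, where 16.7% of all genes tested rose and 19.0% fell. Of 13 root markers 1 rose and 2 fell, or 1 when any library of either line was left out. PYK10, an abundant glucosidase of root ER bodies, had 3568 and 3425 CPM in MORF2OX(w), against 1892 and 1755 CPM in gun1-9 (log2 0.94 ± 0.14 SE), and SCR, a factor of the root endodermis and leaf bundle sheath, fell by 1.27. The root list summed to 3679 and 3537 CPM in MORF2OX(w), against 2085 and 1931 CPM in gun1-9, nearly all of it PYK10. Of 11 guard cell and stomatal markers 3 rose (1 without either MORF2OX(w) library or gun1-9 replicate 2), of 6 vascular markers 2 rose (none without MORF2OX(w) replicate 1 or gun1-9 replicate 1, 4 without either wild type library on norflurazon), and of 3 epidermis and 7 seed storage markers tested none passed. The guard cell list summed to 84.0 and 81.3 CPM in MORF2OX(w), against 78.9 and 69.8 CPM in gun1-9, and the epidermis list to 133 and 121 CPM, against 97.2 and 99.0 CPM in gun1-9. The 10 seed storage markers listed summed to 5.16 and 1.38 CPM in MORF2OX(w), against 1.28 and 1.16 CPM in gun1-9, where EM1 was at 0 counts. The vascular list summed to 169 and 146 CPM in MORF2OX(w), against 114 and 131 CPM in gun1-9. Their part in the other results was not tested. In whole seedlings, fewer cells of a type and less RNA per cell cannot be told apart.

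The place of MORF2OX(w) between wild type and gun1-9 was also described over all genes. The 2 comparisons with wild type share the wild type libraries and, through MORF2OX(w) or gun1-9, libraries of the comparison above, so the shares are given as a description. Against wild type on norflurazon, 1724 genes were higher in MORF2OX(w) and 935 lower, and in gun1-9 4731 (22.9%) were higher and 4310 (20.9%) lower. The mean CPM of MORF2OX(w) lay between those of gun1-9 and wild type in 48.9% of all genes tested, in 61% of the genes lower in MORF2OX(w) than in gun1-9 and in 40.1% of those higher. By fitted log2 distance MORF2OX(w) was nearer to wild type than to gun1-9 in 60.9% of all genes, in 91.9% of those lower and in 93% of those higher. A gene called here had to lie away from gun1-9, which favours large shares. Of the genes lower in MORF2OX(w) than in gun1-9, 25% also differed from wild type by the edgeR test, and of those higher 17.3% did. The wild type libraries on norflurazon varied most between replicates (chi-square of the counts per degree of freedom 36.05, against 5.216 in MORF2OX(w) and 5.823 in gun1-9), and leaving out wild type replicate 1 raised the genes called between MORF2OX(w) and gun1-9 to 9873.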

How the data were processed

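Libraries were made from 500 ng of total RNA with a stranded, poly(A)-selecting kit and sequenced from 1 end, per the labels' protocols. The authors deposited raw counts per gene, naming HTSeq 0.6.1, Bowtie2 2.3.1, edgeR and TopHat2 2.1.1 with the TAIR10 build, per the submitters' processing notes. The strand setting of the counting is not given in the sources used here.

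From these counts, edgeR 4.0.16 (TMM scaling, its default filter on low counts, quasi-likelihood F test, 5 group means over all 10 libraries) tested 20628 of 33602 genes, with Benjamini-Hochberg adjustment over all of them. The SE is the log2 fold change divided by the square root of F, and levels are CPM. The procedure was tested on simulated counts. Total counts ran between 19018594 and 25220815 per library.

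Named are MORF2, GUN1 and the 12 largest rises and falls at 10 CPM or more whose libraries did not overlap between the lines. Up to 3 called members a list and direction at 1 CPM or more are also named, except genes said to be chosen later. Lists and comparison were chosen with earlier results of these data known. Of 205 named genes, 45 overlap a counted gene on the opposite strand and 7 on the same strand, so their reads may be shared: of those described, FLS2, LHCB3, PSAH2, NDF4, GUN4, PSY, BBX14, PIF1, MORF4, CREF7, TT4, UGT74C1, BCAT2, DIN6, APR3 and PYK10 on the opposite strand and CA1, MORF9 and GSTU18 on the same strand. Alternatives were DESeq2 1.42.0, RLE scaling, no filter, fewer groups, a replicate block and leaving out each library. Coordinates and promoters come from RefSeq's TAIR10.1.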

Additional observations from a re-analysis of the deposited data

How the results depend on the processing

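Of 175 named genes past the test, 133 stayed past it in the same direction under all 16 alternatives, 42 lost the call under at least 1, and none changed sign. Fitting only the 4 libraries compared or only 8 libraries without wild type on norflurazon lost none of these calls, RLE scaling and no filter lost 4 each, DESeq2 lost 8, and leaving out a library of either line lost between 24 and 35. The genes differing numbered 4571 to 9873 when 1 library was left out, with 1980 to 4791 higher and 2591 to 5082 lower. With only the 4 libraries, 5258 were higher, and 10730 differed in all. The counts were 7431 with RLE scaling, 7901 with no filter and 6549 with DESeq2. With 1 library left out, the plastid ribosomal genes lower numbered 14 to 29 and the aliphatic glucosinolate genes lower 5 to 9. The replicate block gave 7359 genes, 7169 of them shared, and changed 2 named calls. Same-numbered libraries of MORF2OX(w) and gun1-9 did not deviate together (correlation -0.028). That value cannot show whether libraries of the same number were grown or handled together. The cause of these shifts was not tested. Each line has 2 libraries, which limits how small a change could be detected. Genes with few counts carry wide intervals.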
